A study of Homo sapiens with 12 samples.

Results

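The comparison was between ΔIDR1b ARID1A and wild-type ARID1A, each put back into ARID1A-knockout 293T cells that had also been given EWS-FLI1. Its members were chosen by their labels, 2 libraries of ΔIDR1b and 2 of wild-type, so 4 of the 12 libraries of the series. 293T is a human embryonic kidney cell line. All 4 libraries, and every other library named below, came from cells whose own ARID1A gene had been knocked out. The labels give 2 µg of EWS-FLI1 plasmid and a further 48 h of growth before polyA RNA was taken. Whether the ARID1A forms were introduced transiently or stably, and whether the knockout line is 1 clone, are not given in the sources used here. The same comparison with an empty vector in place of EWS-FLI1 (2 libraries a group) shares no library with it. The knockout cells with EWS-FLI1 and no ARID1A (2 libraries) serve as a reference level.

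ARID1A is a large DNA-binding subunit of the BAF class of SWI/SNF complexes, which use ATP to move nucleosomes and open enhancers and promoters. Much of the protein is intrinsically disordered, meaning that it has no fixed fold, and IDR1b is a segment of such a region. EWS-FLI1, the driver of most Ewing sarcomas, joins the disordered N-terminal part of EWSR1 to the ETS DNA-binding domain of FLI1 and is known to bring BAF complexes to GGAA repeats.

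The deposited gene counts summed to between 11702251 and 14445379 fragments a library. Levels are given in CPM, the usual unit for a gene's share of a library's counts, on library sizes that edgeR's TMM method had scaled, so they are relative to the rest of each library. Except where another method or fit is named, every adjusted p below comes from edgeR's 2-sided quasi-likelihood F-test. Benjamini-Hochberg adjustment was over the 20377 genes tested, and a gene with an adjusted p under 0.05 is said to be called. The sources do not say that repeats are separate cultures, so these p-values measure the spread between the sequenced samples, which may be technical. Of 8 genes that mark 293T cells, 7 passed the filter on low counts, among them VIM at 423 to 605 CPM and KRT8, with sums of 1178 and 1173 CPM in wild-type and 885 and 993 in ΔIDR1b. Of 11 markers of blood, fibroblast, endothelial, liver and red cells, 6 passed the filter, and their sums were 6.25 and 5.99 CPM in wild-type and 8.42 and 5.98 CPM in ΔIDR1b. PTPRC and COL1A2 had 0 counts in all 4 libraries.

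The introduced genes themselves differed between the groups. FLI1 (chromosome 11, 128686535 to 128813267, GRCh38 as are all positions) had 3675 and 3462 CPM in the wild-type libraries and 1888 and 1906 CPM in ΔIDR1b. Both ΔIDR1b libraries lay below both wild-type ones and close to the cells without ARID1A, at 1830 and 1688 CPM. The fall was 1.88-fold (log2 fold change -0.91, SE 0.09, adjusted p = 1.08e-08). EWSR1 (chromosome 22, 29268009 to 29300525), where fragments of the cells' own gene and of the fusion add up, had 3728 and 3462 CPM in wild-type and 2044 and 2073 in ΔIDR1b (log2 fold change -0.81, SE 0.09, adjusted p = 4.65e-08). ARID1A (chromosome 1, 26693236 to 26782104) had 1843 and 2291 CPM in wild-type against 2608 and 2621 in ΔIDR1b. The log2 fold change was 0.34 (SE 0.09, adjusted p = 0.00973). It was 0.19 (adjusted p = 0.158) without replicate 1 of wild-type and had an adjusted p of 0.128 when only the 4 libraries were fitted. The form of ARID1A, its amount and the amount of fusion transcript changed together between the groups and cannot be told apart in this comparison.

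**Figure D1:**
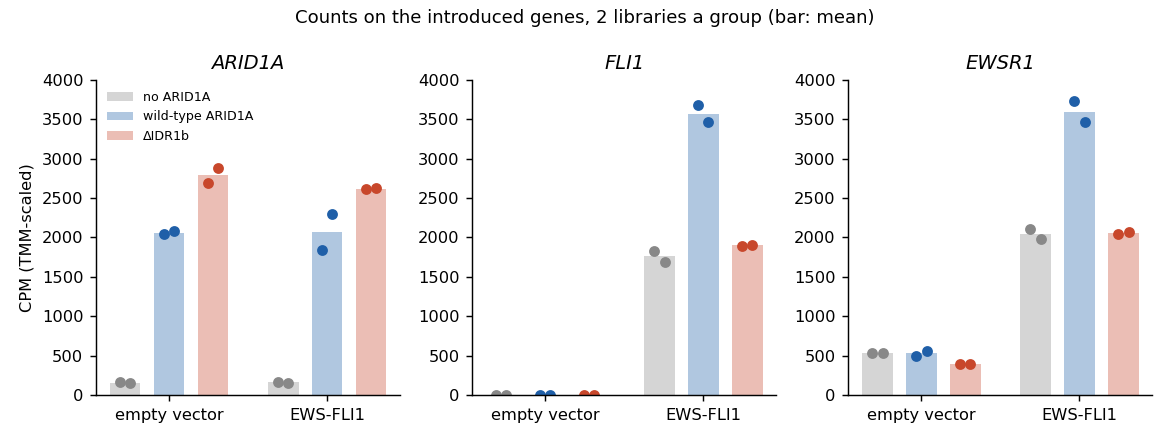
CPM of ARID1A, FLI1 and EWSR1 in the 12 libraries (points) with group means (bars, n = 2), by vector and ARID1A form. FLI1 stood at 3462 to 3675 CPM in wild-type and 1888 to 1906 in ΔIDR1b with EWS-FLI1, and near 0 with the empty vector.

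Of 20377 genes, 3785 (18.6%) were called, 1727 (8.48%) higher and 2058 (10.1%) lower in ΔIDR1b. The balance depended on the scaling, with 1985 higher and 1733 lower under upper-quartile factors. The genes called lower were the more abundant, with a median of 50.5 CPM against 15.9 for those called higher and 12.1 for all genes. Together the lower genes took 357800 CPM in wild-type and 257100 in ΔIDR1b, and the higher genes 48130 and 70710. Most changes were small. The median log2 fold change was 0.76 among the higher genes and -0.53 among the lower ones, and 1140 genes (5.59%) were called with a change of at least 1 on the log2 scale, 584 higher (2.87%) and 556 lower (2.73%). The libraries of the groups did not overlap in 3750 of the called genes, and did not in 54.5% of all genes tested. In RNA from whole cultures, fewer cells expressing a gene and less of its RNA in each cell cannot be told apart. When only the 4 libraries were fitted 1622 genes were called, 849 higher and 773 lower, and without replicate 1 of ΔIDR1b 1886 were.

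Large changes are described among called genes with a mean of at least 5 CPM whose groups did not overlap. Larger log2 values lay mostly at lower levels. PPP1R10 (chromosome 6, 30600413 to 30618612), a nuclear targeting subunit of protein phosphatase 1, had 6.62 and 7.81 CPM in wild-type and 39.2 and 41.3 CPM in ΔIDR1b. The ΔIDR1b values were also above the 12.8 and 12.6 CPM of cells without ARID1A, and the rise over wild-type was 5.57-fold (log2 fold change 2.48, SE 0.17, adjusted p = 3.99e-12). HPS6 (chromosome 10, 102065349 to 102068036), a subunit of the BLOC-2 complex of lysosome-related organelles, had 4.44 and 8.04 CPM in wild-type and 22.5 and 27.9 CPM in ΔIDR1b (log2 fold change 2.01, SE 0.25, adjusted p = 6.57e-07). Without ARID1A it stood at 2.90 and 5.01 CPM, within the range of wild-type or under it. The other genes among the 12 largest rises within these limits were SLC16A13, a monocarboxylate transporter, MOCS3, ANKRD63, SMIM10L2B, GNB3, ADM2, SLITRK3, LINC01411, ZNF239 and ZNF497, with log2 fold changes from 1.90 to 2.86. The largest of these, SLC16A13, had 1 count in replicate 1 of wild-type, and DESeq2 did not call it (adjusted p = 0.0505). Nor did DESeq2 call ZNF497 (adjusted p = 0.0672), of whose exonic bases 52.3% overlap other genes.

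Within the same limits the largest gains in CPM, after ARID1A itself, were those of CELSR2, IFIT2, MT-CYB and MKI67, of which MT-CYB lost its call in 3 alternatives. CELSR2, an atypical cadherin of planar cell polarity, had 243 and 324 CPM in wild-type and 442 and 448 in ΔIDR1b. IFIT2, an interferon-induced RNA-binding protein, had 101 and 95.2 CPM against 263 and 229. Both ΔIDR1b libraries exceeded both wild-type ones in each case, which the limits required. The rise of IFIT2 was 2.5-fold (log2 fold change 1.32, SE 0.11, adjusted p = 8.51e-11).

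The falls within these limits included several abundant genes. CCN1 (chromosome 1, 85580761 to 85584589), a secreted matricellular protein and a target of YAP and of serum response factor, had 397 and 369 CPM in wild-type and 83.2 and 96.3 CPM in ΔIDR1b. The groups lay far apart, and ΔIDR1b was also below the 270 and 245 CPM of cells without ARID1A. The fall was 4.27-fold (log2 fold change -2.09, SE 0.11, adjusted p = 1.28e-15). SAT1, the catabolic enzyme of polyamines, had 407 and 341 CPM in wild-type and 87.1 and 92.7 CPM in ΔIDR1b (log2 fold change -2.06, SE 0.11, adjusted p = 1.28e-15). GADD45A, a stress-induced growth arrest gene, had 327 and 321 CPM against 153 and 130 (log2 fold change -1.19, SE 0.10, adjusted p = 1.78e-10). CCN1, SAT1 and GADD45A were called under every alternative setting tried.

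Some of these falls were measured on genes that share exonic sequence with a neighbour, for which fragments overlapping both were not counted. GLIPR1 had 18.5 and 9.86 CPM in wild-type and 1.27 and 2.71 in ΔIDR1b (log2 fold change -2.82), and 24.4% of its exonic bases overlap KRR1 on the opposite strand. PSMA2, a proteasome subunit, had 14.6 and 6.82 CPM against 1.91 and 1.53 (log2 fold change -2.63), with 29.7% overlap. EIF4A1, the RNA helicase of cap-dependent initiation, had 57.7 and 52.5 CPM against 12.3 and 13.6 (log2 fold change -2.09), with 47.4% overlap. These levels therefore stand for the part of each gene that no other gene covers. DDX47, PRC1-AS1, OGFR-AS1, H2BC21 and IGSF6, with log2 fold changes from -2.25 to -1.75, were also among the 12 largest falls within the same limits. The 12 held CCN1 and SAT1 too, and ANKRD37 and HSPA5, which are described below, but not GADD45A.

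Several chaperones of the endoplasmic reticulum (ER), HSPA5 first among them, were lower in ΔIDR1b. When unfolded proteins gather in the ER, the sensors ATF6, IRE1 and PERK raise the transcription of such chaperones, and ATF6 acts with NF-Y on the ER stress response element. Of 23 genes of this response, 10 fell (43.5%) and 2 rose (8.7%), beside 10.1% and 8.5% of all genes tested. Their median log2 fold change was -0.28 against 0.01 over all genes tested. HSPA5 (BiP, chromosome 9, 125234853 to 125241382), the main ER chaperone, had 2571 and 2153 CPM in wild-type and 614 and 644 CPM in ΔIDR1b. The ΔIDR1b libraries were also below the 1882 and 1811 CPM of cells without ARID1A. The fall was 3.75-fold (log2 fold change -1.91, SE 0.10, adjusted p = 1.13e-15).

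HSP90B1 (GRP94), the HSP90 paralog of the ER, had 1359 and 1072 CPM in wild-type and 686 and 709 in ΔIDR1b (log2 fold change -0.80, SE 0.10, adjusted p = 2.96e-07). HERPUD1, which helps retrotranslocate proteins for degradation, had 147 and 141 CPM against 76.1 and 69.3 (log2 fold change -0.99, adjusted p = 3.40e-08). DNAJB9, a BiP co-chaperone, had 32.9 and 23.5 CPM against 14.6 and 14.9 (log2 fold change -0.93, adjusted p = 6.18e-05). In these genes no ΔIDR1b library reached the lower wild-type library. The 2 members that rose, EDEM1 and SEL1L of ER-associated degradation, had log2 fold changes of 0.45 and 0.42, and both calls were lost when only the 4 libraries were fitted. ATF6 itself had 79.6 and 71.3 CPM against 92.1 and 83.2 and was not called (adjusted p = 0.186). In that 4-library fit 4 members were called lower and 0 higher, without replicate 1 of ΔIDR1b 5 and 1, and without its replicate 2 6 and 2.

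The ER stress response element was searched for on either strand as CCAAT, 9 bases of any kind and CCACG, in the 250 bases before the start of each gene in RefSeq's promoter windows (GRCh38.p14), which matched 12582 of the genes tested. It occurred in 16 of them (0.13%), of which 6 belong to the 22 matched genes of this response. Each match holds a CCAAT box, which alone stood in 34.5% of all windows and in 18 of these 22. The 19 bases are shown with the CCAAT and CCACG parts in capitals because they are the stretch that these 6 genes share, each read 5′ to 3′ on the strand that carries the match.
HSPA5, chr9:125241391-125241409, gene on the minus strand, match on the gene's strand: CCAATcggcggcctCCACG
HSP90B1, chr12:103930216-103930234, gene on the plus strand, match on the gene's strand: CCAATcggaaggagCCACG
HSP90B1, chr12:103930321-103930339, gene on the plus strand, match on the other strand: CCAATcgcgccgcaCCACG
CALR, chr19:12938384-12938402, gene on the plus strand, match on the other strand: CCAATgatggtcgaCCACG
CANX, chr5:179698778-179698796, gene on the plus strand, match on the gene's strand: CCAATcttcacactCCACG
XBP1, chr22:28800603-28800621, gene on the minus strand, match on the gene's strand: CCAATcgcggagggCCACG
CRELD2, chr22:49918554-49918572, gene on the plus strand, match on the other strand: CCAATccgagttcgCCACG

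Of these 6 genes, HSPA5, HSP90B1, CALR and CANX were called lower. CALR (calreticulin) had a log2 fold change of -0.30 (adjusted p = 0.0199), lost when only the 4 libraries were fitted and without replicate 1 of ΔIDR1b. CANX (calnexin), its membrane-bound relative, had a log2 fold change of -0.33 (adjusted p = 0.0092). XBP1, a transcription factor of the response, had -0.15 (adjusted p = 0.314) and CRELD2 -0.01 (adjusted p = 0.96), and neither was called. Over all matched genes, the element stood before 6 of 1310 called lower (0.46%) and 0 of 1221 called higher, the other 2 of the 6 being SERP1 and EIF2A. A match in these letters is a description of the window and does not show that the element was used.

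The whole window of HSPA5 is given because that gene fell most within the list, with the element in capitals. It covers chr9:125241344-125241593 (GRCh38.p14, minus strand) and ends at the base before the start.
HSPA5: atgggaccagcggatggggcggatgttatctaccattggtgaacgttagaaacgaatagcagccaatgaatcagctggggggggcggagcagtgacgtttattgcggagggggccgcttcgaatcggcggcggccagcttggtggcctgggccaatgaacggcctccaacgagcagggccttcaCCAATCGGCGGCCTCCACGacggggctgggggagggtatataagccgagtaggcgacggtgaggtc

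Cytosolic chaperones were examined with them. Of 35 heat-shock and chaperone genes, 14 fell (40.0%) and 1 rose (2.9%), beside 10.1% and 8.5% of all genes tested. The list had a median log2 fold change of -0.26. This list also holds HSPA5, HSP90B1 and DNAJB9, so the lists overlap. CHORDC1, an HSP90 co-chaperone, had 148 and 101 CPM in wild-type and 76.6 and 72.9 in ΔIDR1b (log2 fold change -0.73, adjusted p = 0.00018). The member that rose, HSPA13, had a log2 fold change of 0.35 (adjusted p = 0.0157), lost when only the 4 libraries were fitted and without replicate 2 of ΔIDR1b. The 14 called lower became 7 without replicate 1 of ΔIDR1b and 5 with only the 4 libraries.

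Most immediate early genes tested were lower in ΔIDR1b. These genes are transcribed within minutes of growth factor or stress signals, and the FOS, JUN and ATF proteins among them pair into the AP-1 factor, a known partner of BAF complexes at enhancers. Of 24 members, 15 fell (62.5%) and 0 rose, beside 10.1% and 8.5% of all genes tested. Their median log2 fold change was -0.55. FOS (chromosome 14, 75278826 to 75282230) had 44.6 and 43.3 CPM in wild-type and 14.7 and 13.4 CPM in ΔIDR1b. Both groups stood below cells without ARID1A, at 158 and 169 CPM, and ΔIDR1b was the lowest. The fall from wild-type was 3.13-fold (log2 fold change -1.65, SE 0.13, adjusted p = 2.46e-11).

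ATF3, a stress-induced AP-1 partner, had 1087 and 1075 CPM in wild-type and 479 and 464 in ΔIDR1b (log2 fold change -1.20, SE 0.09, adjusted p = 2.46e-11). Here wild-type stood above the cells without ARID1A (671 and 735 CPM) and ΔIDR1b below them. JUNB had 235 and 315 CPM against 113 and 155 (log2 fold change -1.03, adjusted p = 5.27e-07), and NR4A2, an orphan nuclear receptor, 14.3 and 11.4 CPM against 3.61 and 5.98 (log2 fold change -1.42, adjusted p = 9.32e-06). FOS, ATF3, JUNB and NR4A2 were called under every alternative setting. EGR1, a zinc finger factor named after its values were seen, was not called. It had 30.3 and 33.3 CPM in wild-type and 38.7 and 29.2 in ΔIDR1b, and the groups overlapped (adjusted p = 0.713). Of 20 ERK feedback genes, 3 fell and 2 rose, beside 10.1% and 8.5% of all genes tested. The median log2 fold change of these 20 genes was -0.01. Those that fell included the MAP kinase phosphatases DUSP1 (184 and 197 against 106 and 118 CPM, adjusted p = 1.65e-06) and DUSP5 (30.6 and 32.6 against 13.4 and 15.2 CPM, adjusted p = 2.71e-06), and SPRED1, a RAS inhibitor, was among those that rose (log2 fold change 0.77, adjusted p = 0.00544).

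Genes of glycolysis and of the hypoxia-inducible factor (HIF) were called lower in most cases. HIF binds the core ACGTG in promoters and raises glucose uptake and glycolysis when oxygen is short. Of 36 members, 24 fell (66.7%) and 0 rose, beside 10.1% and 8.5% of all genes tested. Their median log2 fold change was -0.37. SLC2A3, a glucose transporter, had 209 and 216 CPM in wild-type and 102 and 103 in ΔIDR1b (log2 fold change -1.06, SE 0.10, adjusted p = 1.76e-09). ADM, the vasodilator adrenomedullin, had 101 and 112 CPM against 31.4 and 58.9 (log2 fold change -1.24, SE 0.15, adjusted p = 5.79e-07). In cells without ARID1A both were higher than in wild-type, at means of 342 and 375 CPM. The count depended on 1 library: without replicate 1 of ΔIDR1b 7 members were called lower (median -0.24), and when only the 4 libraries were fitted 9 were.

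ANKRD37, a HIF target of little known function, fell most within this list, from 54.1 and 46.9 CPM to 8.78 and 13.97 (log2 fold change -2.15, SE 0.15, adjusted p = 6.10e-12). Of its exonic bases 40.3% overlap UFSP2 on the opposite strand, and its counts come from the remainder. Its promoter window (chr4:185396591-185396840, GRCh38.p14, plus strand) is shown because it holds ACGTG 3 times over both strands, 2 of them overlapping, in capitals.
ANKRD37: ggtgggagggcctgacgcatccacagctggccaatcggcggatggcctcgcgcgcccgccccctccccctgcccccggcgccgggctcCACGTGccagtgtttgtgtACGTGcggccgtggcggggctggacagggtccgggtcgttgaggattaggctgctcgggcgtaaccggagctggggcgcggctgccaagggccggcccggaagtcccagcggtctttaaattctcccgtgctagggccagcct
ACGTG is short and common. It stood in 22.8% of all 12582 windows, in 26.8% of those of genes called lower and in 21.6% of those called higher. Within this list it stood in 14 of the 32 matched windows. Immediate early genes had it in 8 of 18 windows, and genes of the response to unfolded ER proteins in 9 of 22. Genes that EWS-FLI1 activates had it in 8 of 21, and cytosolic ribosomal protein genes in 19 of 68. The share was thus not particular to this list.

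Sterol synthesis genes, the targets of SREBP2, were lower in 11 of 29 (37.9%) and higher in 1 of 29 (3.4%). Over all genes tested, 10.1% were called lower and 8.5% higher. The list had a median log2 fold change of -0.20. INSIG1, which holds SREBP in the ER, had 161 and 148 CPM in wild-type and 70.6 and 86.3 in ΔIDR1b (log2 fold change -0.98, adjusted p = 6.69e-08). MSMO1, a C4-demethylating enzyme, had 81.1 and 45.9 CPM against 29.7 and 27.9 (log2 fold change -1.14, adjusted p = 3.77e-06), with wild-type replicates further apart than in most genes. SCD, the stearoyl-CoA desaturase, had 791 and 753 CPM against 510 and 544 (adjusted p = 3.44e-05). SREBF1 was the member that rose (log2 fold change 0.40, adjusted p = 0.0312), a call lost in 6 alternatives (adjusted p up to 0.185).

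Among genes of the translation machinery, the cytosolic ribosomal proteins had the largest share of falls. Of 86 cytosolic ribosomal protein genes, 72 fell (83.7%) and 0 rose, beside 10.1% and 8.5% of all genes tested. The median log2 fold change of these genes was -0.44. Their summed level was 78460 and 72770 CPM in the wild-type libraries and 51420 and 59460 CPM in ΔIDR1b. Both ΔIDR1b sums were below both wild-type ones, and the cells without ARID1A were the highest, at 85750 and 84130 CPM. RPS3A had 1073 and 877 CPM against 605 and 683 (log2 fold change -0.60, SE 0.10, adjusted p = 4.71e-05). Without replicate 1 of ΔIDR1b, the library with the lower sum, 34 members were called (median -0.34), and 35 when only the 4 libraries were fitted. EEF1A1, the elongation factor that carries tRNA to the ribosome, had 10550 and 9658 CPM against 6955 and 7822 (log2 fold change -0.45, adjusted p = 0.000141), the largest loss in CPM of any called gene that met the naming rule. Ribosomal protein genes and EEF1A1 have near-identical processed pseudogenes, with which the counting could have split or dropped fragments.

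Of 62 initiation and elongation factor genes, 20 fell and 2 rose (9 and 0 without replicate 1 of ΔIDR1b, 4 and 1 with only the 4 libraries). Nuclear-encoded respiratory chain genes, 79 in all, fell in 25 cases and rose in 0 (4 without that library, 5 with only the 4 libraries), at a median of -0.28. Of 77 mitochondrial ribosomal protein genes, 16 fell and 2 rose. Of 36 proteasome subunit genes, 9 fell and 1 rose. Over all genes tested, 10.1% were called lower and 8.5% higher. The counts for mitochondrial ribosomal proteins and for the proteasome were 7 and 4 lower without replicate 1 of ΔIDR1b. Among 13 genes of the mitochondrial genome 2 rose and 1 fell, and the sign of their median, -0.04, turned positive without replicate 1 of wild-type.

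Host genes of small nucleolar RNAs (snoRNAs) are noncoding genes whose introns release the guides of ribosomal RNA modification. They fell in 15 of 28 cases (53.6%) and rose in 0, beside 10.1% and 8.5% of all genes tested. Their median log2 fold change was -0.57. SNHG1 had 464 and 389 CPM in wild-type and 204 and 162 in ΔIDR1b (log2 fold change -1.22, SE 0.11, adjusted p = 4.57e-10). SNHG3, SNHG15 and SNHG17 fell by 1.24, 0.99 and 0.90 on the log2 scale. Each stayed called under every alternative setting. Counts on the snoRNA and scaRNA genes themselves, a list added after their values were seen, were lower in 26 of 80 and higher in 0, with summed levels of 134 and 100 CPM in wild-type, 46.3 and 45.4 in ΔIDR1b and 277 and 253 without ARID1A. With GC and length trends taken out of the fit, 11 were called lower, and between 11 and 17 were when only the 4 libraries were fitted or without replicate 1 of wild-type or either replicate of ΔIDR1b. These RNAs carry no poly(A) tail, so polyA libraries count them incompletely.

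Splicing factors of the SR and hnRNP families fell in 12 of 35 cases and rose in 1, with 21 lower without replicate 2 of wild-type and 7 with only the 4 libraries. Over all genes tested, 10.1% were called lower and 8.5% higher. HNRNPH1 had 1040 and 789 CPM against 523 and 507 (log2 fold change -0.83, adjusted p = 5.03e-07). Replication-dependent histone genes fell in 4 of 26 cases (2 with only the 4 libraries or without replicate 1 of wild-type), with sums of 72.9 and 54.9 CPM in wild-type, 34.97 and 33.2 in ΔIDR1b and 255 and 218 without ARID1A. H1-2, a linker histone, had 10.0 and 8.26 CPM against 3.54 and 2.99 (adjusted p = 1.16e-05), and H2BC21 23.5 and 12.6 against 4.81 and 5.14 (adjusted p = 1.41e-07). Histone genes are near-identical in part, and most of their messages have no poly(A) tail.

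**Figure D2:**
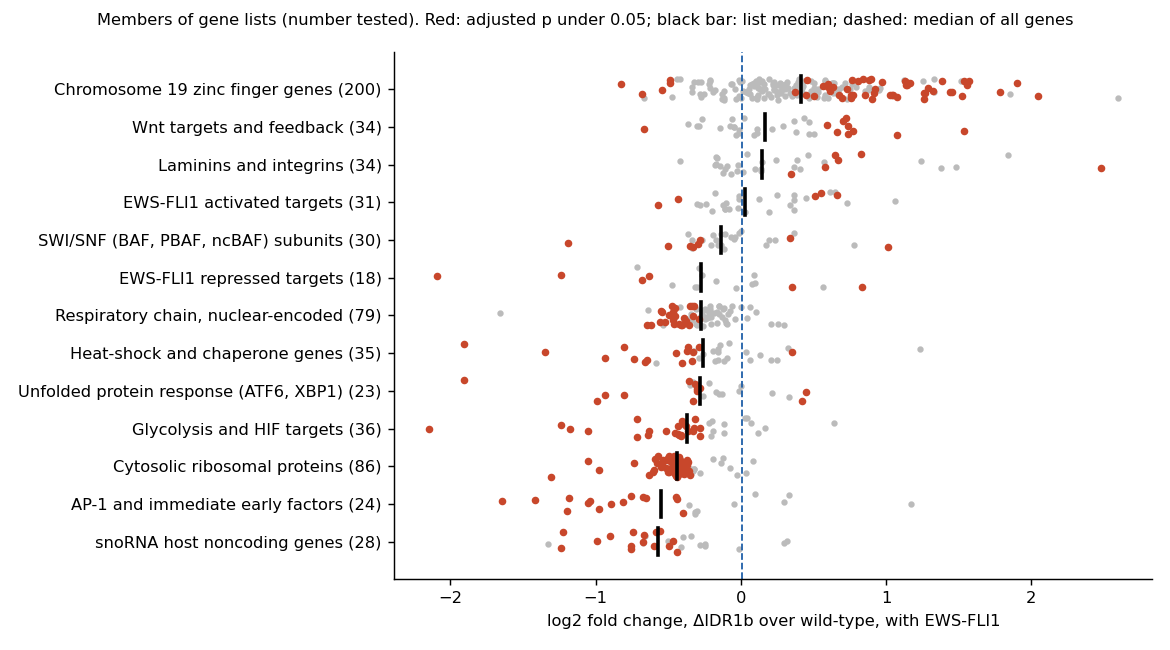
Log2 fold change of each tested member of 13 gene lists (points, red where called), with list medians (black bars) and the median of all genes (dashed, 0.01). Members of the ribosomal, glycolysis, immediate early and snoRNA host lists lie to the left, with medians of -0.44, -0.37, -0.55 and -0.57, and chromosome 19 zinc finger genes to the right, at 0.42.

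Genes that EWS-FLI1 is known to activate in Ewing sarcoma were called in both directions. Of 31 tested, 3 rose (9.7%) and 2 fell (6.5%), beside 8.5% and 10.1% of all genes tested. Their median log2 fold change was 0.03, and their summed level was 2047 and 1953 CPM in wild-type and 1925 and 1867 in ΔIDR1b. CCND1 (cyclin D1) had 44.0 and 47.1 CPM in wild-type and 78.3 and 65.6 in ΔIDR1b. The ΔIDR1b libraries were the highest and the cells without ARID1A the lowest, at a mean of 17.4 CPM, and the log2 fold change from wild-type was 0.66 (SE 0.13, adjusted p = 0.000566). E2F3 had 55.5 and 54.9 CPM against 81.7 and 80.1 (log2 fold change 0.55, adjusted p = 0.000791). STAG1 rose by 0.51 (adjusted p = 0.0228), a call lost with only the 4 libraries and without replicate 1 of wild-type or either replicate of ΔIDR1b. ID2, an inhibitor of basic helix-loop-helix factors, had 122 and 109 CPM against 79.9 and 75.6 (log2 fold change -0.57, adjusted p = 0.000202). EZH2, the methyltransferase of Polycomb complex 2, fell by 0.43 (adjusted p = 0.00869), a call lost with only the 4 libraries and without replicate 1 of wild-type or replicate 2 of ΔIDR1b (adjusted p up to 0.154). NKX2-2, the homeobox factor most used as a marker of Ewing sarcoma, stayed low, at 2.41 and 3.26 CPM against 4.95 and 2.36 (adjusted p = 0.539).

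Of 18 genes known to be repressed by EWS-FLI1, 4 fell (22.2%) and 2 rose (11.1%), beside 10.1% and 8.5% of all genes tested. Their median log2 fold change was -0.28. Those that fell were CCN1, CCN2, LOX and CDKN1C, the last of which lost its call in some alternatives (adjusted p up to 0.193). Fitted without replicate 1 of ΔIDR1b, the list had 2 lower and 1 higher. CCN2, a matricellular YAP target, had 14.2 and 11.4 CPM against 5.80 and 5.01 (log2 fold change -1.24, adjusted p = 0.000394). LOX, which crosslinks collagen, had 332 and 357 CPM against 171 and 272 (log2 fold change -0.64), a call lost without replicate 1 of ΔIDR1b (adjusted p = 0.0651). TNC (tenascin C) rose, from 10.5 and 9.40 to 16.99 and 18.5 CPM (log2 fold change 0.84, adjusted p = 0.00489), and LTBP1 rose by 0.35, a call lost without any 1 of the 4 libraries. TNC was nearly unexpressed in cells without ARID1A, at 0.51 and 0.95 CPM.

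THBD, LINC00659 and PTGS2, named after their values were seen, were compared at their level with the fusion. Whether they responded to EWS-FLI1 was not tested here. THBD (thrombomodulin) had 11.1 and 11.8 CPM in wild-type and 6.72 and 5.98 in ΔIDR1b, without overlap, but was not called (log2 fold change -0.84, SE 0.31, adjusted p = 0.0523). LINC00659 had 18.6 and 20.9 CPM against 13.02 and 14.5 (log2 fold change -0.52, adjusted p = 0.19). PTGS2 (cyclooxygenase-2) had 87.4 and 71.4 CPM against 46.5 and 42.8 and was called (log2 fold change -0.83, SE 0.13, adjusted p = 3.86e-05). In the empty-vector libraries PTGS2 also was lower in ΔIDR1b, at 28.4 and 26.9 against 13.1 and 15.7 CPM. Among 20 endogenous ETS factors 2 rose (10.0%) and 1 fell (5.0%), beside 8.5% and 10.1% of all genes tested. ELK4, which partners serum response factor, had 127 and 101 CPM against 75.6 and 66.2 (log2 fold change -0.68, adjusted p = 0.000119). The rises of ETS1 and ELF1 were lost without replicate 1 of ΔIDR1b and with only the 4 libraries. The pair GGAAGGAA, on either strand of the 250-base windows, stood in 2.82% of all windows, 2.70% of those of genes called higher and 2.67% of those called lower.

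The other SWI/SNF subunits were measured because ΔIDR1b is a change within that complex. Of 30 subunit genes, ARID1A included, 6 fell (20.0%) and 2 rose (6.7%), beside 10.1% and 8.5% of all genes tested. The paralog ARID1B, which takes the place of ARID1A in BAF, had 93.9 and 95.8 CPM in wild-type and 89.5 and 86.8 in ΔIDR1b (log2 fold change -0.11, adjusted p = 0.539). The ATPase SMARCA4 had 418 and 499 CPM against 395 and 438 (adjusted p = 0.334). SMARCA2, the other ATPase, had 58.8 and 55.2 CPM against 40.7 and 39.8 (log2 fold change -0.50, SE 0.12, adjusted p = 0.00408). SMARCE1 had 17.8 and 10.7 CPM against 6.51 and 5.98 (log2 fold change -1.19, adjusted p = 0.000303), and 18.9% of its exonic bases overlap another annotated gene on the same strand. BICRAL, a subunit of the ncBAF class, rose from 5.42 and 5.53 to 11.6 and 10.5 CPM (log2 fold change 1.01, adjusted p = 0.00462). SMARCC2, SMARCD1, SMARCD2 and BRD9 fell by 0.28 to 0.35 on the log2 scale. The 6 called lower became 2 without replicate 1 of ΔIDR1b or with only the 4 libraries, 3 without replicate 2 of wild-type and 10 without its replicate 1.

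Polycomb complexes, which oppose SWI/SNF at many promoters, had 12 of 33 subunit genes lower (36.4%) and 4 higher (12.1%). Over all genes tested these shares were 10.1% and 8.5%. EZH1, the alternative methyltransferase to EZH2, had 109 and 109 CPM against 69.2 and 74.9 (log2 fold change -0.60, adjusted p = 0.000128). EED, the histone-mark reader of the same complex, had 62.3 and 48.6 CPM against 35.7 and 36.3 (log2 fold change -0.62, adjusted p = 0.000658). The 4 that rose were LCOR, CBX6, CBX7 and EPOP, with log2 fold changes from 0.54 to 0.85, of which that of EPOP was not called without replicate 2 of ΔIDR1b. Without replicate 1 of ΔIDR1b 7 were called lower, as without its replicate 2, and when only the 4 libraries were fitted 5 were.

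Zinc finger genes of chromosome 19 were called higher more often than lower (all genes tested: 8.5% higher, 10.1% lower). Most encode KRAB repressors that bind transposable elements. Of 200 tested, 50 rose and 5 fell, with a median log2 fold change of 0.42, and their sums were 2821 and 2792 CPM in wild-type, 3375 and 3146 in ΔIDR1b and 2592 and 2531 without ARID1A. ZNF274, which guides a histone methyltransferase to zinc finger clusters, had 19.6 and 25.4 CPM against 47.9 and 43.9 (log2 fold change 1.03, SE 0.15, adjusted p = 1.35e-05). ZNF302 had 16.9 and 15.8 CPM against 40.7 and 31.5 (adjusted p = 4.96e-06), and ZNF382 10.8 and 9.86 against 21.7 and 27.8 (adjusted p = 4.59e-05). The groups did not overlap in these genes. The 50 called higher became 24 without replicate 1 of ΔIDR1b and 29 with only the 4 libraries. Over all 434 genes named ZNF, a list added after values were seen, 113 rose and 19 fell (62 and 15 without replicate 1 of ΔIDR1b, 65 and 8 with only the 4 libraries). Of 310 divergent transcripts, noncoding genes that start back to back with another gene, 36 rose (11.6%) and 9 fell (2.9%), at a median of 0.31. Of 751 antisense genes 55 rose (7.3%) and 59 fell (7.9%), beside 8.5% and 10.1% of all genes tested. Both lists were also added after values were seen. The first count was 20 and 6 without replicate 1 of ΔIDR1b, 24 and 6 without its replicate 2, 21 and 4 without replicate 1 of wild-type and 18 and 5 with only the 4 libraries. The second was 31 and 37 or 30 and 38 without replicate 1 or 2 of ΔIDR1b, and 36 and 30 with only the 4 libraries. The list of 38 miRNA host genes was added in the same way and had 5 higher and 2 lower (3 and 1 without either replicate of ΔIDR1b, 3 and 0 with only the 4 libraries).

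The Wnt, Notch and matrix lists held both rises and falls (all genes tested: 8.5% higher, 10.1% lower). Of 34 Wnt genes 9 rose and 1 fell, but 3 rose and 4 fell without replicate 1 of wild-type, and 3 rose and 1 fell without replicate 2 of ΔIDR1b or with only the 4 libraries. FZD6, a Wnt receptor, had 23.9 and 23.1 CPM against 38.7 and 39.6 (log2 fold change 0.74, adjusted p = 0.000361), and LGR4, the receptor for R-spondin, fell from 55.0 and 44.7 to 31.0 and 31.8 CPM (adjusted p = 0.00103). In the Notch pathway 4 of 27 rose and 2 fell, against 2 and 6 without replicate 1 of wild-type and 6 and 4 without its replicate 2. The receptor NOTCH3 had 83.3 and 111 CPM in wild-type and 165 and 170 in ΔIDR1b (log2 fold change 0.79, SE 0.12, adjusted p = 1.43e-05), and it stood at a mean of 46.0 CPM without ARID1A. RBPJ, the DNA-binding factor of the pathway, fell from 265 and 221 to 168 and 161 CPM (adjusted p = 0.000199). HES4, a repressor related to known Notch targets, fell from 200 and 258 to 106 and 138 CPM (adjusted p = 1.07e-05).

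Of 34 laminin and integrin genes 6 rose and 0 fell, of 38 collagen genes 3 rose and 0 fell (8 and 0 without replicate 2 of wild-type), and of 35 matrix glycoprotein genes 7 rose and 3 fell. The first of these counts was 3 without either replicate of ΔIDR1b or with only the 4 libraries, and the last was 2 to 4 higher without replicate 1 of wild-type or either replicate of ΔIDR1b. LAMA5, a basement membrane laminin chain, had 120 and 161 CPM against 216 and 232 (log2 fold change 0.67, adjusted p = 4.71e-05). AGRN (agrin), a heparan sulphate proteoglycan, had 72.6 and 109 CPM against 158 and 170 (adjusted p = 9.61e-06). COL5A1 had 49.8 and 58.9 CPM against 79.2 and 88.7 (adjusted p = 0.000297). SLIT2, a guidance ligand, went the other way, from 378 and 432 to 198 and 207 CPM (log2 fold change -1.002, adjusted p = 6.23e-09).

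Stress and immune lists held changes in both directions (all genes tested: 8.5% higher, 10.1% lower). Of 31 genes of the ATF4 integrated stress response 9 rose and 5 fell. SLC7A11, the cystine importer, had 20.0 and 18.9 CPM in wild-type and 55.6 and 39.3 in ΔIDR1b (log2 fold change 1.29, SE 0.17, adjusted p = 1.44e-06), while PPP1R15A, which ends the response by dephosphorylating eIF2, had 243 and 271 CPM against 167 and 129 (log2 fold change -0.80, adjusted p = 2.60e-06). Without replicate 1 of ΔIDR1b 5 rose and 5 fell, with only the 4 libraries 4 and 5. Among interferon-stimulated genes, IFIT2 and IFIT5 were called higher and ISG15, a ubiquitin-like modifier, lower (65.5 and 67.5 against 33.6 and 36.5 CPM, adjusted p = 2.06e-06). Of 35 such genes tested, 8 rose (22.9%) and 4 fell (11.4%), at a median log2 fold change of -0.01. Their count was 4 higher and 1 lower without replicate 1 of ΔIDR1b and 5 and 2 without its replicate 2. Metallothioneins MT2A and MT1X, zinc-binding proteins, fell by 0.98 and 1.14 on the log2 scale, 2 of 3 tested.

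Proliferation genes were mixed as well (all genes tested: 8.5% higher, 10.1% lower). Of 38 G2/M genes 9 fell and 4 rose, whereas 1 fell and 3 rose with only the 4 libraries, 4 and 6 without replicate 1 of wild-type, and 5 and 5 without replicate 2 of ΔIDR1b. The large spindle and kinetochore genes ASPM (104 and 79.4 against 162 and 147 CPM, adjusted p = 1.53e-05) and CENPF (196 and 166 against 290 and 245 CPM, adjusted p = 0.000199) rose. MKI67, the proliferation antigen, rose from 318 and 312 to 430 and 450 CPM (log2 fold change 0.48, adjusted p = 0.000633). Of 40 S phase genes 6 fell and 1 rose (2 and 1 with only the 4 libraries), among them the replication licensing factor CDT1 (439 and 541 against 299 and 337 CPM, adjusted p = 5.63e-05) and MCM5 of the replicative helicase (347 and 385 against 240 and 279 CPM, adjusted p = 0.000396).

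Lists of cell identity held called genes in both directions (all genes tested: 8.5% higher, 10.1% lower). Called genes numbered 5 higher and 4 lower of 37 HOX genes, 7 and 3 of 51 SOX, FOX and GATA factors, 5 and 4 of 29 kidney development genes, 3 and 2 of 27 neuronal genes, 2 and 2 of 11 keratins and 2 and 7 of 25 EMT and mesenchymal genes. Leaving out replicate 1 of ΔIDR1b gave 1 and 0 for HOX, 3 and 0 for kidney, 1 and 3 for EMT, 3 and 1 for SOX, FOX and GATA and 2 and 0 for keratin genes. SOX4, a progenitor transcription factor, had 316 and 348 CPM against 188 and 172 (log2 fold change -0.88, adjusted p = 7.77e-08), and TWIST1, a mesenchymal factor, 41.2 and 44.1 against 23.4 and 23.6 (adjusted p = 2.32e-05). KRT17, a keratin at 1.02 and 1.21 CPM without ARID1A, had 249 and 312 CPM in wild-type and 165 and 237 in ΔIDR1b, a call (log2 fold change -0.48, adjusted p = 0.0189) lost in 4 alternatives. The remaining lists gave 3 higher and 3 lower of 33 YAP/TEAD genes, 2 and 4 of 40 TGF-β and BMP genes, 2 and 5 of 20 cyclins and inhibitors, 1 and 3 of 26 p53 targets, 2 and 4 of 20 NRF2 targets, 2 and 4 of 16 antigen presentation genes, 1 and 3 of 24 aminoacyl-tRNA synthetases, 0 and 2 of 20 cadherins, 2 and 0 of 13 clustered protocadherins and 1 and 2 of 21 tight junction genes. Cyclins and inhibitors had 2 and 0 with only the 4 libraries and 2 and 2 without either replicate of ΔIDR1b. YAP/TEAD genes had 1 and 5 without replicate 1 of wild-type and 5 and 3 without its replicate 2, and TGF-β and BMP genes 0 and 3 without replicate 1 of ΔIDR1b and 5 and 5 without replicate 2 of wild-type. With only the 4 libraries, the p53, NRF2, antigen presentation, synthetase, cadherin and tight junction lists each had at most 1 called gene in either direction. Of the 293T markers VIM and NEFL were called lower.

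The direction of change went with gene structure. Among protein-coding genes whose annotated exons merge into 1 block, 22% of 364 were called higher and 11% lower, against 10.0% and 10.5% of all 14224 protein-coding genes. The share called higher was 14% with 2 blocks and 9.0% with 17 or more, and that called lower was 14.2% with 5 to 8 blocks and 5.4% with 17 or more. By merged exonic length, 4.8% were called higher and 13.2% lower at over 1000 to 2000 bases, and 12.2% and 8.0% at over 8000 bases. The 171 protein-coding genes of up to 1000 bases had 1.8% higher and 7.6% lower, with a median log2 fold change of -0.12, and the 2650 genes of that length of any class had 1.7% and 11.1%, with a median of -0.36. Counts on 404 olfactory receptor genes, which this line should not express, were higher as well, at 4.90 and 5.57 unscaled CPM in wild-type, 8.06 and 7.36 in ΔIDR1b and 5.47 and 5.04 without ARID1A. The part that RNA length, RNA quality or remaining DNA has in these trends was not tested. With GC and length trends removed, 5385 genes were called.

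**Figure D3:**
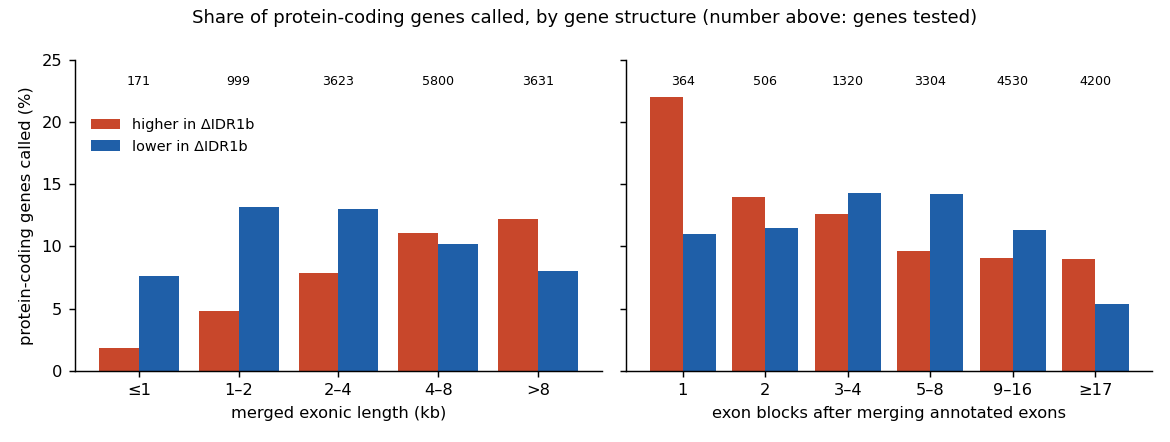
Percent of protein-coding genes called higher (red) or lower (blue) in ΔIDR1b, by merged exonic length and by number of exon blocks, with the genes tested above each pair of bars. Genes of 1 block had 22% higher and 11% lower, and genes of over 8000 bases 12.2% and 8.0%.

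With the empty vector in place of EWS-FLI1, 4995 genes (24.5%) were called between ΔIDR1b and wild-type, 2267 higher (11.1%) and 2728 lower (13.4%), or 2791 and 2184 with upper-quartile scaling. The 2 comparisons share no library. A total of 2772 genes were called in both, 73.2% of those called with EWS-FLI1 and 55.5% of those called with the empty vector, and 0 of them in opposite directions. Across the 12231 genes with a mean of at least 5 CPM, the 2 log2 fold changes had a Pearson r of 0.87, and 0.60 across all genes, which are not independent replicates. HSPA5 had 3093 and 2842 CPM in wild-type and 622 and 722 in ΔIDR1b with the empty vector (log2 fold change -2.14, adjusted p = 3.90e-17). CCN1 had 607 and 534 CPM against 115 and 137 (-2.18, adjusted p = 3.86e-16), and PPP1R10 8.48 and 6.72 against 38.6 and 37.5 (2.32, adjusted p = 1.08e-11). FLI1 had at most 0.15 CPM in these empty-vector libraries.

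The same lists were counted there (all genes tested: 13.4% lower, 11.1% higher). Ribosomal protein genes had 80 called lower and 0 higher of 86 with the empty vector (median -0.66), and snoRNA host genes 19 and 0 of 28 (-0.89). Glycolysis and HIF genes had 25 and 1 of 36 (-0.38), and immediate early genes 12 and 2 of 24 (-0.32). Genes of the response to unfolded ER proteins had 12 and 2 of 23 (-0.33), and chromosome 19 zinc finger genes 6 and 64 of 200 (0.44). The test of the difference between the 2 comparisons, the interaction, called 0 genes in edgeR, fitted without a replicate block, and 0 in DESeq2. In edgeR 741 genes (3.64%) had an unadjusted p under 0.05. The 5 genes with the smallest of these edgeR p-values, led by the pseudogene THUMPD3P1 (unadjusted p = 0.00019), were of low level, at most 11.4 CPM in any of the 8 libraries. Without replicate 1 of wild-type with EWS-FLI1 it called 26. Genes past the threshold in one comparison and not in the other were therefore not shown to differ. SMARCA2, at 45.5 and 55.2 against 46.6 and 49.4 CPM with the empty vector (adjusted p = 0.726), had an interaction of -0.43 on the log2 scale (SE 0.17, unadjusted p = 0.0182). KLF2, an immediate early factor named after its values were seen, had 34.0 and 48.6 against 23.9 and 23.1 CPM with EWS-FLI1 and 13.99 and 11.9 against 16.4 and 12.1 with the empty vector (interaction -0.95, SE 0.26, unadjusted p = 0.000916). Both had an adjusted p of 1 for the interaction.

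**Figure D4:**
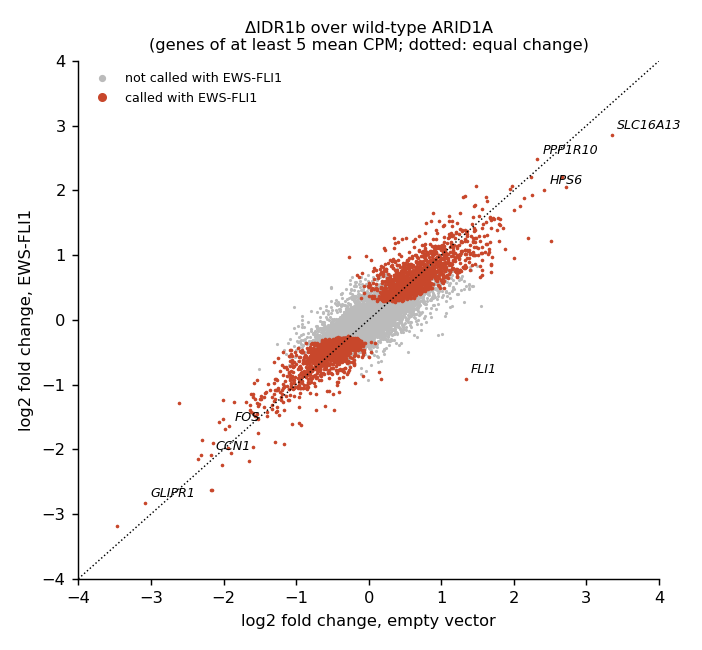
Log2 fold change of ΔIDR1b over wild-type with the empty vector (x) and with EWS-FLI1 (y) for genes of at least 5 mean CPM, red where called with EWS-FLI1. Points follow the dotted line of equal change (r = 0.87), and FLI1, at most 0.15 CPM with the empty vector, lies off it.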

How the data were processed

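PolyA RNA of ARID1A-knockout 293T cells was sequenced in 12 libraries, 2 for each of 6 groups. Per the file headers, the authors counted fragments per gene name with featureCounts 2.0.1 (paired reads, both ends mapped, exons, no strand option) on GENCODE 41 and GRCh38.p13, so the deposited values are raw counts. Multi-mapping fragments, and those lying on more than 1 gene, were dropped. The submitters' processing notes also name STAR, SAMtools and edgeR, with no version. Groups were taken from the sample labels.

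Genes passing edgeR's filter (at least 10 counts scaled to library size in a group, 15 in total) numbered 20377 of 60645 gene names and held 99.79% to 99.87% of counts. Differences were tested with edgeR 4.0.16 (R 4.3.3, limma 3.58.1): TMM factors, 1 mean per group over all 12 libraries, quasi-likelihood F-test, Benjamini-Hochberg adjustment. The interaction was tested in the same fit. The biological coefficient of variation was 10.1%. Deposited totals were 13873202 and 13634265 for wild-type with EWS-FLI1, and 13147699 and 13719199 for ΔIDR1b. A count of 0 allows up to 0.216 to 0.228 CPM (3 counts), for counting error only. Replicates differed by more than sampling noise in every group, with a chi-square per degree of freedom of 12.1 in wild-type and 6.13 in ΔIDR1b.

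The 49 gene lists were written from general knowledge and 6 more were added after values were seen. Members and lists were chosen with earlier results of these data known, so a list is described by its counts and median beside those of all genes. Genes named are the introduced ones, the 12 largest called rises and falls with a mean of at least 5 CPM and no overlap between groups, the 5 largest called gains and losses in CPM, up to 4 called members of each list in each direction by adjusted p with a mean of at least 1 CPM, members of the SWI/SNF and EWS-FLI1 lists, and list members that define a group. Gene biotype and GC content came from GENCODE 29 and were found for 96.9% of tested genes. Promoter windows came from RefSeq (GRCh38.p14). On simulated counts for 19523 genes with 200 changed for ΔIDR1b against wild-type with EWS-FLI1, the test recovered 38.8% at 1.5-fold, 77.6% at 2-fold and 90.9% at 4-fold, with 4 false calls. The simulation gave all groups the same spread for each gene. The real wild-type replicates with EWS-FLI1 differed more than those of any other group, so these rates may not hold for the comparison itself. Alternatives were DESeq2 1.42.0, other scalings and filters, a replicate block, GC and length trends removed, fits of only the libraries compared, and each replicate left out.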

Additional observations from a re-analysis of the deposited data

How the results depend on the processing

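Of 246 named genes called with EWS-FLI1, 132 were called under every alternative run and 0 changed direction, and 1077 genes in all (499 higher, 578 lower) were called under all 15 settings. The count of 3785 became 1622 when only the 4 libraries were fitted and 1140 with a log2 change of at least 1, and ranged from 1886 to 4383 with 1 library left out. It was 3853 with RLE scaling, 3718 (1985 higher, 1733 lower) with upper-quartile scaling, 3630 without a filter, 5385 with GC and length trends removed and 3501 with DESeq2. With the empty vector, 1393 genes had a log2 change of at least 1, and 2754 to 3436 were called with 1 library left out. The interaction called 6 genes without a filter and 0 to 26 with 1 library left out. With the replicate number as a block within each vector, the counts were 5049 with EWS-FLI1 and 10 for the interaction, and with that replicate block and GC and length trends removed 12 for the interaction. Same-numbered libraries correlated in their deviations at 0.352 between wild-type and ΔIDR1b with EWS-FLI1, at 0.084 to 0.165 in the other groups of one vector and at -0.172 to -0.005 across vectors, so the numbers were not taken as pairs. A library left out leaves a lone sample, assumed to vary like the other groups. At this depth, with 2 replicates and the same simulated spread in all groups, 38.8% of simulated 1.5-fold changes were recovered, and depth was not varied.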
